A study of Mus musculus with 16 samples.

Results

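Growth and survival factors that the retina is known to release or receive under injury, and 2 of their receptors, were followed in retinas of mice flown in space and of their controls on the ground. The set was fixed by name and holds 10 genes, *Hgf*, *Met*, *Bdnf*, *Ntrk2*, *Cntf*, *Fgf2*, *Gdnf*, *Lif*, *Edn2* and *Serpinf1*, all of which were found among the 25905 genes of the deposited table. They encode 8 ligands and 2 receptors. The study took the right retinas of wild type C57BL/6 mice, all of them male. The labels give an age of 10 weeks. Per the methods this was the age of the flown mice before the mission, so their retinas were taken at a later age. Sequenced were 8 mice of a spaceflight group that lived in rodent housing on the International Space Station and came back alive, and 8 mice of a ground control group kept on Earth in the same hardware, on the same food and with matched temperature and carbon dioxide. Eyes of flown mice were taken after a return to Earth and transport, so flight, landing and the time on the ground afterwards cannot be told apart.

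The value used for each gene was the mean normalized count, which is the mean over all 16 libraries of the read counts after the authors divided them by the size factors of DESeq2. It pools both groups, so it shows how abundant the transcripts of each gene were in these retinas and not how spaceflight moved them. It does not give the amount of protein. The columns of counts per library carry laboratory codes that match no mouse and no group in the labels. For that reason the difference between spaceflight and ground control, the spread between mice and the depth of each library were not analysed here, and no value below has an SD. Values given per kilobase are the mean normalized count divided by the length in kilobases of the longest annotated transcript, unless another length is named. Comparisons of mean normalized counts between genes were not adjusted for length. In bulk retina, fewer cells of a type and less RNA per cell cannot be told apart.

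Neurotrophic factors are secreted proteins that keep neurons alive by binding receptors on their surface. In the retina, stressed photoreceptors and Müller glia, the radial glia that span the tissue, are known to exchange them. *Lif*, *Edn2* and *Fgf2* are known to rise when photoreceptors are damaged, *Bdnf*, *Cntf*, *Gdnf* and *Hgf* are known to protect retinal neurons when supplied, and *Serpinf1* encodes pigment epithelium-derived factor (PEDF), which supports neurons and restrains vessel growth.

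By mean normalized count the receptors were the first and second of this set. *Ntrk2*, which encodes TrkB, the receptor tyrosine kinase for BDNF, had a mean normalized count of 236. Its level per kilobase was 27.0, the first of the 10, and it stood above 54.4% of the 17753 genes with a level above 0 and a known length. *Met*, which encodes the receptor tyrosine kinase for hepatocyte growth factor, had a mean normalized count of 90.4. Its level per kilobase was 13.3, the fourth of the 10, above 45.5% of genes.

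Of the 8 ligands, 3 reached a mean normalized count of 10 or more, as did 47.8% of all genes in the table. *Hgf*, which encodes hepatocyte growth factor, had a mean normalized count of 47.7 and a level per kilobase of 13.7, above 46.0% of genes. *Serpinf1* had a mean normalized count of 27.7, and being the product of a short transcript it came second by level per kilobase, at 15.1, above 47.0% of genes. *Fgf2*, which encodes basic fibroblast growth factor, had almost the same mean normalized count, 27.4, but a level per kilobase of 4.59, above 35.3% of genes, because its annotated transcript runs to 5973 bases against 1832 for *Serpinf1*. This value depends on the length used, and the transcript counted for *Fgf2* has these 5973 bases. Per kilobase of coding sequence, which leaves out part of the counted transcript, *Fgf2* stood at 59.4, second after *Ntrk2* at 95.8. *Hgf* and *Met*, a ligand and its receptor, lay close together per kilobase, with a ratio of *Met* to *Hgf* of 0.966. With the median transcript length *Met* was the higher of the pair, at 25.5 against 17.7.

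The other 5 ligands were under a mean normalized count of 10. *Edn2*, which encodes endothelin-2, a small peptide that signals from photoreceptors to glia, had a mean normalized count of 8.33 and a level per kilobase of 5.70, slightly above that of *Fgf2*, an order that turns with the coding or the median transcript length. *Bdnf*, brain-derived neurotrophic factor, had a mean normalized count of 5.72 and a level per kilobase of 1.34. *Gdnf*, glial cell line-derived neurotrophic factor, followed at a mean normalized count of 2.33, and *Cntf*, ciliary neurotrophic factor, at 1.71. Per kilobase these were 0.634 and 1.59, which put *Cntf* just above *Bdnf* and *Gdnf* below both, while by coding length *Cntf* was the lowest of these 3.

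*Lif*, leukemia inhibitory factor, was the lowest of the 10, at a mean normalized count of 0.0699. Summed over the 16 libraries this comes to 1.12 normalized counts, against 27.3 for *Cntf*, 91.5 for *Bdnf* and 3777 for *Ntrk2*. Its level per kilobase of 0.0174 lay above 0.608% of genes.

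**Figure D1:**
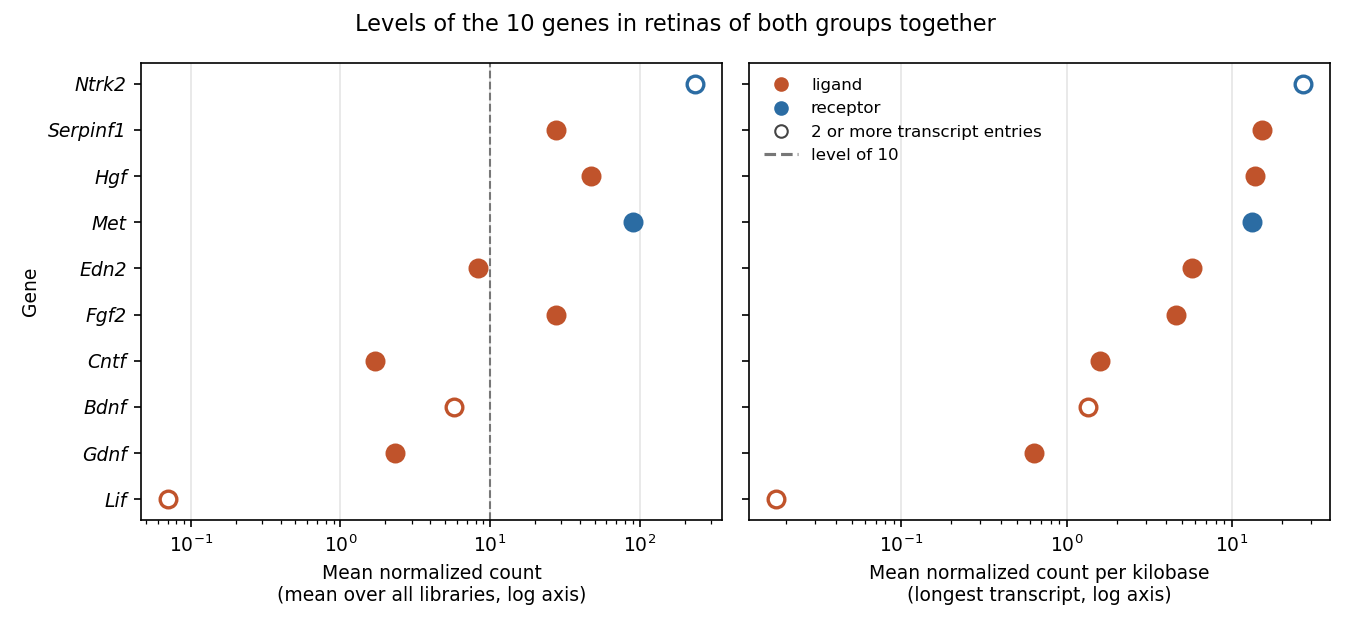
Mean normalized count over all 16 libraries (left) and the same per kilobase of the longest transcript (right) for the 10 genes, both on log axes, each point being 1 gene and open points marking genes counted as 2 or more transcripts. *Ntrk2* is first on both scales, 5 genes lie at or right of the dashed line at a mean normalized count of 10, and *Lif* lies far left of the others at 0.0699.

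The deposited counts list RefSeq transcripts rather than genes, and *Bdnf* has 4 such entries, *Ntrk2* 2 and *Lif* 2, while the other 7 genes have 1 each. Across the table, the 22086 symbols with 1 entry had a median mean normalized count of 12.9, and 51.7% of them reached 10. The 3794 symbols with 2 or more entries had a median of 0.806, and 24.6% reached 10. Whether the table keeps 1 entry of such a gene or adds them up is not given in the sources used here.

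Genes that retinas are known to express were among those read low. *Rlbp1*, which encodes the retinaldehyde-binding protein of Müller glia, has 2 entries and a mean normalized count of 1.39, whereas *Glul*, the glutamine synthetase of the same cells with 1 entry, stood at 17455. *Stat3* and *Fgfr1*, with 3 entries each, and *Pdgfrb*, with 2, are listed at 0. Other genes with 2 or more entries were read higher. The bipolar cell marker *Trpm1*, with 2, stood at 2866 and *Ncam1*, with 3, at 970. The levels of *Bdnf*, *Ntrk2* and *Lif* therefore cannot be set against those of genes with 1 entry without this limit, and the part that the entries play in them was not tested. The low values of *Cntf*, *Gdnf* and *Edn2* belong to genes with 1 entry.

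**Figure D2:**
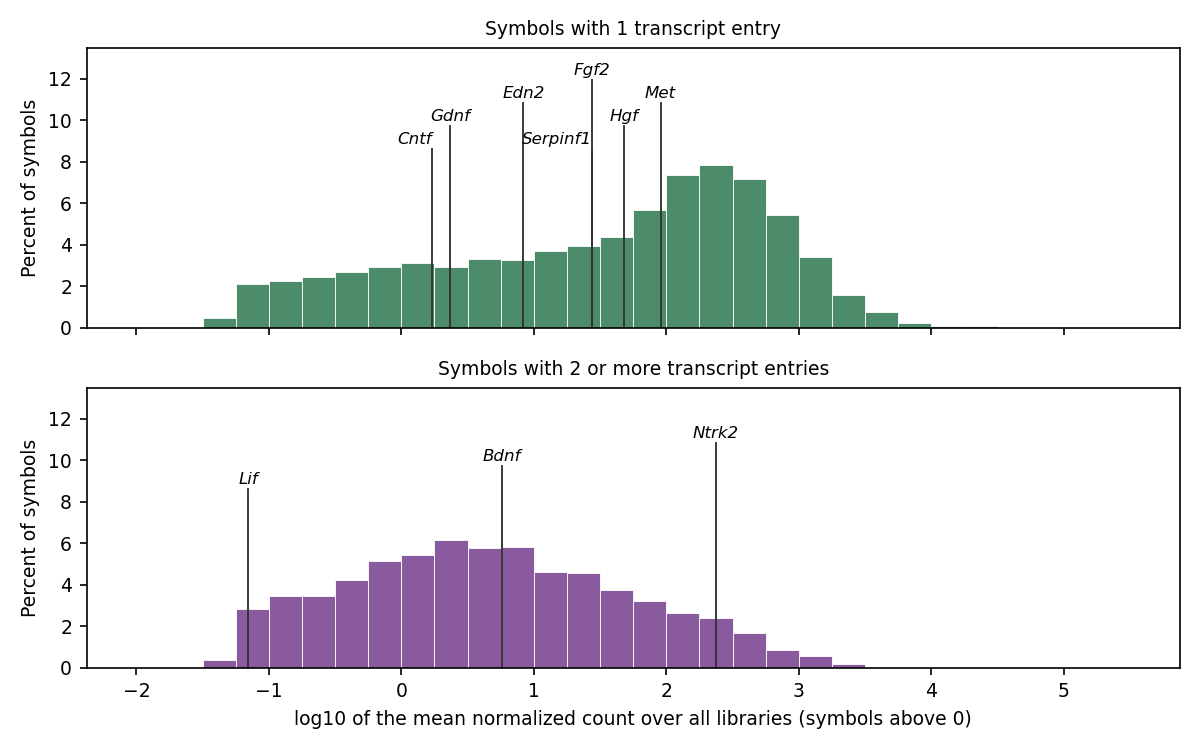
Distribution of the log10 mean normalized count over symbols above 0 with 1 transcript entry (top) and with 2 or more (bottom), as a percent of all symbols of that kind, with vertical lines at the 10 genes. Symbols with 2 or more entries lie lower, and *Lif* and *Bdnf* fall in that panel together with *Ntrk2*, while *Cntf*, *Gdnf* and *Edn2* are low in the panel of symbols with 1 entry.

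In the family of hepatocyte growth factor, *Hgf* stood above its relative *Mst1*, macrophage stimulating protein, by 34.5 times per kilobase. The *Mst1* receptor *Mst1r* had a mean normalized count of 8.45, against 90.4 for *Met*. The enzymes known to activate the HGF precursor were low: *Hgfac* stood at a mean normalized count of 0.357 and *St14* at 5.05, and *Hpn*, with 2 entries, is listed at 0. *Spint1*, an inhibitor of these proteases, stood at 15.7. Downstream of the receptor, the adaptors *Grb2* and *Gab1* had levels per kilobase of 196 and 56.2, and *Plxnb1*, a semaphorin receptor that associates with MET, had 104. Of the 13 genes of this list, 7 (53.8%) reached a mean normalized count of 10, beside 47.8% of all genes in the table.

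Among the neurotrophins *Bdnf* was the ligand with the highest value, ahead of *Ntf5* at a mean normalized count of 0.659 and *Ntf3*, with 3 entries, at 0.124. *Ntrk2* exceeded *Bdnf* by 20.1 times per kilobase, both being counted as several transcripts. *Ntrk3*, the receptor for neurotrophin-3, had a level per kilobase of 2.43 with 2 entries. The receptors that bind neurotrophins without a kinase have 1 entry each, with *Ngfr*, the p75 receptor, at 181 per kilobase and *Sort1*, the sorting receptor sortilin, at 305. *Frs2*, an adaptor of Trk and FGF receptors, had 89.6. Of the 12 genes of this list, 6 (50%) reached a mean normalized count of 10, beside 47.8% of all genes.

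*Cntf* and *Lif* signal through receptors that share the chain gp130. *Il6st*, which encodes gp130, had a level per kilobase of 155, and *Lifr*, the second shared chain, had 83.7 with 2 entries. *Cntfr*, the chain that is specific to CNTF, was at 3.35 per kilobase with 3 entries. The further cytokines of this family were low as well. *Clcf1* stood at a mean normalized count of 4.98, *Il11* at 1.17 and *Osm* at 0.256, and *Il6* is listed at 0 with 1 entry. All 7 ligands of this family were thus under a mean normalized count of 10. Inside the cell, *Jak1*, a kinase bound to gp130, had the highest level per kilobase of the list at 303, and *Socs3*, a feedback inhibitor of the pathway, had 9.14. Of the 16 genes, 6 (37.5%) reached a mean normalized count of 10, beside 47.8% of all genes.

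Among the fibroblast growth factors *Fgf2* was the least abundant of the 3 ligands on the list. *Fgf1*, acidic fibroblast growth factor, was 35.1 times higher per kilobase and *Fgf9* 19.9 times higher, by longest transcripts. The receptors *Fgfr2*, *Fgfr3* and *Fgfrl1*, each with 2 or more entries, stood between 0.0389 and 0.573 per kilobase, with *Fgfr1* listed at 0, and *Fgfr4*, with 1 entry, at 1.56. The feedback inhibitors known to be induced by FGF signaling were detected, with *Spry2* at 191 per kilobase and *Spred1* at 95.0. *Spry1* and *Spry4* were lower, at 24.8 and 20.4 per kilobase. Of the 12 genes, 7 (58.3%) reached a mean normalized count of 10, beside 47.8% of all genes. All of these 7 have 1 entry.

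*Gdnf* was exceeded by 2 of its 3 relatives in mean normalized count and by all 3 per kilobase, where it stood at 0.634. *Nrtn*, neurturin, had a level per kilobase of 37.7, which is 59.5 times that of *Gdnf*, *Artn* had 2.92 and *Pspn* 1.50. The receptor side was higher, with *Gfra1*, the coreceptor for GDNF, at 58.5 per kilobase, *Gfra2*, the coreceptor for neurturin, at 138, and the shared kinase *Ret* at 15.4 with 2 entries. *Ncam1*, a further receptor for GDNF and an abundant adhesion molecule, had 148 with 3 entries. *Gfra4*, the coreceptor for persephin, is listed at 0 with 2 entries. Of the 10 genes, 5 (50%) reached a mean normalized count of 10, beside 47.8% of all genes.

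The 3 endothelins had similar levels, with *Edn1* at 7.73 per kilobase, *Edn3* at 6.81 and *Edn2* at 5.70. *Ednra*, a receptor for endothelin-1 and endothelin-2, was at 6.27. *Ednrb*, which binds all 3 and is carried by Müller glia, was at 0.487 with 2 entries. *Ece1*, an enzyme that cuts the endothelin precursors, was at 170. For PEDF, the proposed receptors *Rpsa* and *Lrp6* had levels per kilobase of 984 and 91.9, and *Pnpla2*, with 3 entries, had 0.0933. *Rpsa* is a component of the ribosome as well.

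**Figure D3:**
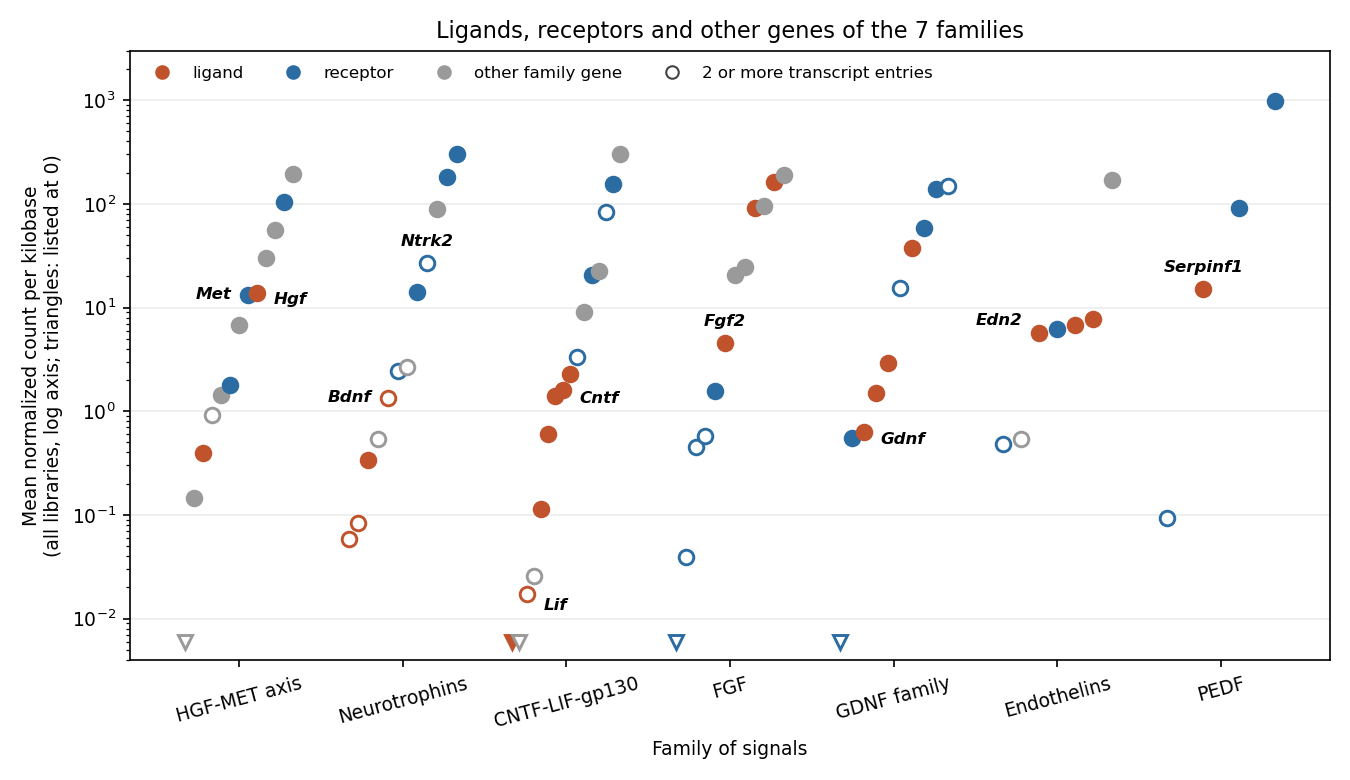
Mean normalized count per kilobase (log axis) of the genes of the 7 families around the 10 named genes, coloured by role, with open symbols for genes counted as 2 or more transcripts and triangles for genes listed at 0. Receptors and other family genes fill the upper part of most families, whereas the ligands among the 10 named genes lie between 0.0174 for *Lif* and 15.1 for *Serpinf1*.

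Over the 7 families together, the lists hold 24 ligands, 28 receptors and 22 further genes. A mean normalized count of 10 or more was reached by 8 ligands, 17 receptors and 13 of the others, which is 33.3% of the ligands and 60.7% of the receptors, beside 47.8% of all genes in the table. Among genes with 1 entry the counts were 8 of 20 ligands and 12 of 15 receptors, beside 51.7% of all genes with 1 entry. The median levels per kilobase of these ligands and receptors were 2.61 and 58.5. The corresponding value was 9.31 for all genes of the table with 1 entry and a length, those listed at 0 included. The 10 genes themselves had a median level per kilobase of 5.15, beside 4.41 over all genes of the table with a length, those listed at 0 included, and 5 of them reached a mean normalized count of 10. By the longest transcript and among the 17753 genes above 0, *Ntrk2*, with 2 entries, alone of the 10 stood above the middle of the distribution. Among genes with a mean normalized count of 10 or more, *Ntrk2* stood above 31.1%.

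Genes known to be raised in Müller glia after injury were read in the same pooled retinas. Of the 10 on this list, 8 had a mean normalized count of 10 or more, beside 47.8% of all genes in the table. The values pool both groups, so whether these genes were raised in flown retinas was not tested. *Vim*, an intermediate filament of these glia, had a level per kilobase of 352, *Mt1*, a metallothionein, had 196 and *Mt2* had 122. *Gfap*, the intermediate filament of reactive glia and astrocytes, had 19.7 with 2 entries, and *Lcn2*, lipocalin-2, had 28.8. *Stat3*, the factor that gp130 receptors activate, is the gene listed at 0.

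Markers of the labelled tissue were present. All 7 rod markers and all 5 cone markers had a mean normalized count of 10 or more, beside 47.8% of all genes in the table. So did all 5 bipolar and all 5 amacrine and horizontal cell markers. Of the 5 ganglion cell markers 4 reached it, with *Rbpms*, which has 3 entries, at 5.53, and of the 5 Müller glia markers 4 did, with *Rlbp1* at 1.39. Markers of tissues next to the retina were present as well, in ranges that overlapped those of the retinal lists. Of 9 pigment epithelium and melanocyte markers, 8 reached 10, in a range of 2.72 for *Best1* to 540 for *Ttr*, and of 5 lens markers 4 did, from 8.74 to 898. *Serpinf1* is also known to be made by the pigment epithelium, and its level per kilobase of 15.1 stood beside 64.8 for *Rpe65*, the retinoid isomerase of that tissue. The part of pigment epithelium in the level of *Serpinf1* was not tested. Of 5 microglia markers 4 reached 10, of 4 endothelial ones 3, of 3 pericyte ones 2 and of 2 astrocyte ones 1, none with a mean normalized count above 100 apart from *Kdr* and *Rgs5*. Blood, cornea and ciliary body markers had mean normalized counts of 0 to 23.3.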

How the data were processed

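Retinal libraries were stranded, made from total RNA and sequenced as single-end reads. Per the labels and the study's methods, adapters were removed by Trimmomatic, TopHat2 placed the reads on a mouse assembly older than GRCm38, and HTSeq counted transcripts. The signal values used here are deposited means of the 16 libraries, which the authors had scaled by size factors in DESeq2 1.22.2 under R 3.5.1. The table's other 5 numeric columns hold the authors' own comparison of spaceflight with ground control (fold change, standard error, statistic and p-values, unadjusted and adjusted) and were not used. The 32 columns of counts per library in the deposited count tables match no label and were not used, and only the transcript accessions of the larger one were read. A test of the counts between groups was therefore not run, and no replicate spread or depth per library was computed.

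Transcript lengths came from GENCODE M21 on GRCm38, joined by symbol for 20840 genes and by an older symbol for 2240 (89.1% of 25905). Percentiles count genes with a lower level per kilobase. No coordinates are given, since the builds differ. No protein or promoter sequence is printed.

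Named are all 10 genes and, from each family list, the 3 highest and the lowest per kilobase, with single cell type markers only where they bear on a member. Further genes were named for their role after their values were seen, and some listed genes are not reported here. The members and lists were chosen with earlier results of these data known. The division by length and the percentile count were tested on simulated data, and the matching of symbols and transcript lengths was not. Python 3.11.15, numpy 2.4.6, pandas 2.3.3 and matplotlib 3.10.9 were used.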

Additional observations from a re-analysis of the deposited data

How the results depend on the processing

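No paired analysis was possible because the columns of counts carry no mouse or group, and for the same reason other settings of a test between groups, such as leaving out a mouse, were not run. The order of the levels per kilobase depended on the length used. With the coding length, levels per kilobase were 95.8 for *Ntrk2*, 59.4 for *Fgf2*, 22.1 for *Serpinf1*, 21.9 for *Met*, 21.8 for *Hgf*, 15.9 for *Edn2*, 6.60 for *Bdnf*, 3.23 for *Gdnf*, 2.88 for *Cntf* and 0.115 for *Lif*. With the median transcript length they were 81.8 for *Ntrk2*, 54.3 for *Fgf2*, 37.6 for *Serpinf1*, 25.5 for *Met*, 17.7 for *Hgf*, 1.46 for *Bdnf* and 0.0184 for *Lif*, and equal for the other 3. *Fgf2* thus moved from the sixth place to the second under both, and *Ntrk2* stayed first and *Lif* last. The length of the counted transcript, an alternative chosen after seeing the data, gave equal values for all 10. For the 7 genes with 1 entry the counted transcript was thus as long as the longest one, and the coding length leaves out part of it. For *Bdnf*, *Ntrk2* and *Lif* the length taken as counted is the longest of their entries, whichever was counted, so it is no check for these genes. The share of family genes, 51.4% at a mean normalized count of 10, was 78.4% at 1, 31.1% at 100 and 66.0% among genes with 1 entry, the last also chosen after seeing the data. Over all genes of the table the same shares were 47.8% at 10, 62.0% at 1, 30.3% at 100 and 51.7% among genes with 1 entry. Percentiles of the 7 genes with 1 entry were 15.6 to 41.2 when set among such genes only, all lower than before, moved by less than 3 points among genes with a protein, and were 5.19 to 31.1 for the 5 genes at 10 or more when set among genes at 10 or more.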
